A study of Mus musculus with 19 samples.

Results

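The genes described here encode the chemokine receptors CCR4, CCR6, CCR8 and CCR10, the selectin ligand PSGL-1 (*Selplg*) and the glycosyltransferases *Fut7*, *Gcnt1*, *St3gal4* and *St3gal6*. They were chosen by symbol as 9 of the 24982 genes that the table of counts lists. All 9 are listed, and all 9 passed the filter on low counts, which kept 11464 genes for testing.

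Lymphocytes leave the blood in steps: selectins on the vessel wall catch sugar-capped ligands on the rolling cell, chemokines then activate it through their receptors, and integrins arrest it. PSGL-1 binds E- and P-selectin only after enzymes of the Golgi have built the sialyl Lewis X sugar on it, and T cells that carry this ligand together with CCR4 or CCR10 are the classical skin-homing cells. CCR8 marks many T cells of the skin, and CCR6 guides cells to epithelia that make CCL20.

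RNA-seq was done on FACS-sorted CD4+ FoxP3-GFP+ regulatory T cells (Tregs) from the axillary, brachial and inguinal lymph nodes of mice of the Foxp3DTR strain, in which FoxP3+ cells carry GFP and a diphtheria toxin receptor. All mice of all groups carried this allele and were 8 to 16 weeks old. Tregs were sorted as CD44high or CD44low, with CD44 as the activation marker, 7 days after a burn over 20% of the body surface (a 90 °C bath for 9 seconds) or a sham procedure, and RNA came from 50000 cells per sample. The 4 groups were uninjured CD44high (n = 4), uninjured CD44low (n = 5), injured CD44high (n = 4) and injured CD44low (n = 6), 19 libraries in all. Whether a library holds 1 mouse or a pool is not stated, so p-values measure the spread between these libraries, which may in part be technical. In the injured CD44low group 3 libraries carry a second number (1_2, 4_2 and 5_2) whose meaning is not given. Results for the 9 genes, and injury effects of 29 others named, that change their call with or without them are given both ways. The injury effects of *S100a9*, *Lyz2*, *Klrb1c*, *Pecam1* and *B4galt1* are given with all libraries only.

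Library totals lay between 5582234 and 9433610 counts. *Foxp3*, *Cd4*, *Cd3e*, *Il2ra*, *Ikzf2* and *Ctla4*, markers of Tregs and T cells, had a count in every group. Their summed level was 3940 to 4340 CPM (counts scaled to each library's total over the genes tested) in uninjured and 3940 to 4380 CPM in injured CD44high libraries. In the CD44low libraries it was 3330 to 3810 and 3140 to 3790 CPM. *Ctla4* and *Ikzf2* were higher and *Il2ra* lower in CD44high Tregs in both conditions, and *Cd4* was higher there in injured mice. *Cd44* itself was at 541 to 626 CPM in uninjured and 369 to 497 CPM in injured CD44high libraries, against 111 to 156 and 102 to 150 CPM in the CD44low libraries, so it followed the sort. Markers of macrophages, monocytes and dendritic cells summed to 95.3 to 176 CPM in uninjured CD44high and 111 to 260 CPM in injured CD44high libraries, and to 20.8 to 41.7 and 36.0 to 160 CPM in the corresponding CD44low libraries. *Clec9a* was at 0 in the uninjured CD44low group. Of the 8 markers tested, 8 were higher in CD44high Tregs of uninjured mice and 3 in those of injured mice. At an unadjusted p under 0.05 (edgeR) these were 8 and 6, and 6032 and 5306 of all 11464 genes passed in either direction. For all marker counts in this paragraph, 24.7% of all genes were called higher and 21.3% lower without injury. With injury these shares were 20.1% and 17.2%. Of 2 tested markers of stroma and endothelium *Col1a1* was higher and *Pecam1* lower in CD44high Tregs in both conditions. The list summed to 59.3 to 75.4 CPM in uninjured and 78.6 to 115 CPM in injured CD44high libraries. In the CD44low libraries it summed to 187 to 219 and 136 to 231 CPM. Within this list *Col3a1*, *Pdpn* and *Cdh5* were at 0 in both CD44low groups, *Lyve1* in the uninjured one, and *Pdpn* in both CD44high groups. Of 5 tested markers of CD8 and NK cells 1, *Klrb1c*, was higher in CD44high Tregs in both conditions, while the list summed to 49.5 to 74.4 CPM over all groups. The part of these cells in the differences given below was not tested. Markers of B cells, which use CCR6 and PSGL-1, lay at 104 to 282 CPM over all groups, and of 9 tested 1 was higher in uninjured and 0 in injured CD44high Tregs by edgeR (2 and 1 at an unadjusted p under 0.05).

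The regulatory sequence in front of the genes is shown for the 4 genes whose 250 bases before the first RefSeq start hold no annotated exon, so that a reader can see the letters that the motif counts refer to. Sequences are from RefSeq, build GRCm38.p6, 5′ to 3′ on the strand of the gene. Capitals mark matches on either strand to short motifs named for factors that act on these genes in T cells, whose letters are spelled out after the sequences.
*Fut7*, chr2:25422992-25423241, + strand: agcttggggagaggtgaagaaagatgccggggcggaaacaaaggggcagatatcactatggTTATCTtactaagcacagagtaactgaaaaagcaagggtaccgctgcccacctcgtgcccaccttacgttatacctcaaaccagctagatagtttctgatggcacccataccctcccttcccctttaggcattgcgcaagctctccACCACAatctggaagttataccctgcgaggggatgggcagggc
*Ccr6*, chr17:8235793-8236042, + strand: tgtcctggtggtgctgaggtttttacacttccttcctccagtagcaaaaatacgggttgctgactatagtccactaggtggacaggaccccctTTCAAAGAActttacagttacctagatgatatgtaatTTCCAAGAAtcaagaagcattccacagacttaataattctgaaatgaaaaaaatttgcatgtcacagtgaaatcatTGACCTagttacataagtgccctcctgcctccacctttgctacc
*St3gal6*, chr16:58524254-58524503, − strand: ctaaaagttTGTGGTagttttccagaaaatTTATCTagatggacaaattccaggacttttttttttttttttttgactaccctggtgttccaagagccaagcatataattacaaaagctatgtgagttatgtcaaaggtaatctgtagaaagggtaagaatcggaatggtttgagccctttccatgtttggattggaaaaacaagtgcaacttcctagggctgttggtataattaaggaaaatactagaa
*Gcnt1*, chr19:17372845-17373094, − strand: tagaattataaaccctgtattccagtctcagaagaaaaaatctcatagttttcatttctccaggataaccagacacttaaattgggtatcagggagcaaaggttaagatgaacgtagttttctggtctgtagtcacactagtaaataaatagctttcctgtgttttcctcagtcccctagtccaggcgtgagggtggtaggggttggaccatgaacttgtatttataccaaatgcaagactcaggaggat

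*Fut7* had a GATA match that begins 189 bases before the start and a RUNX match at 43 bases. *Ccr6* had STAT matches at 157 and 120 bases and a ROR match at 44 bases, *St3gal6* a RUNX match at 241 and a GATA match at 220 bases, and *Gcnt1* none of the 6 motifs. No match overlapped another. Among all 32851 promoter windows of the same length, the T-box motif, spelled TCACACC, was in 3.33%. The GATA motif, spelled AGATAA, was in 9.99%, and the RUNX motif, spelled TGTGGT, in 14%. The AP-1 motif, spelled TGANTCA, was in 6.75%, the STAT motif, spelled TTCNNNGAA, in 7.02%, and the ROR motif, spelled AGGTCA, in 14%. A match describes letters only. *Fut7* and *Gcnt1*, which were both higher in CD44high Tregs below, shared no motif in these windows.

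Per kilobase of transcript, *Selplg* had the highest level of the 9 genes in each of the 4 groups, at 1580 ± 61.1 CPM per kilobase (SD, n = 4) in uninjured CD44high Tregs. On this scale the receptors followed in the same libraries: *Ccr8* at 289 ± 25.9, *Ccr6* at 254 ± 25.6, *Ccr10* at 132 ± 20 and *Ccr4* at 130 ± 9.83 CPM per kilobase. *Ccr10* and *Ccr4* differed by less than their SD. The enzymes were lower, with *Gcnt1* at 69.4 ± 3.86, *Fut7* at 55.2 ± 3.50, *St3gal4* at 37.6 ± 3.61 and *St3gal6* at 5.35 ± 1.69 CPM per kilobase. In uninjured CD44low Tregs the order was another. *St3gal4* (49.9 ± 8.81, SD, n = 5), *Ccr8* (47.4 ± 10.7) and *Ccr6* (43.4 ± 10 CPM per kilobase) stood next after *Selplg*, *Ccr4* (13.6 ± 3.90) and *St3gal6* (11.0 ± 3.21) followed, and *Gcnt1* (3.72 ± 1.38), *Fut7* (2.00 ± 0.549) and *Ccr10* (0.586 ± 0.422 CPM per kilobase) came last. *St3gal4*, *Ccr8* and *Ccr6* differed by less than their SD in turn, and so did *Ccr4* and *St3gal6*. These levels use the mean length of the annotated transcripts. With the longest transcript *Selplg* was at 687, *St3gal4* at 12.4 and *Ccr4* at 70.0 CPM per kilobase in uninjured CD44high Tregs, and in uninjured CD44low Tregs *St3gal4* (16.5) came below *Ccr8* (47.4) and *Ccr6* (28.4 CPM per kilobase).

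**Figure D1:**
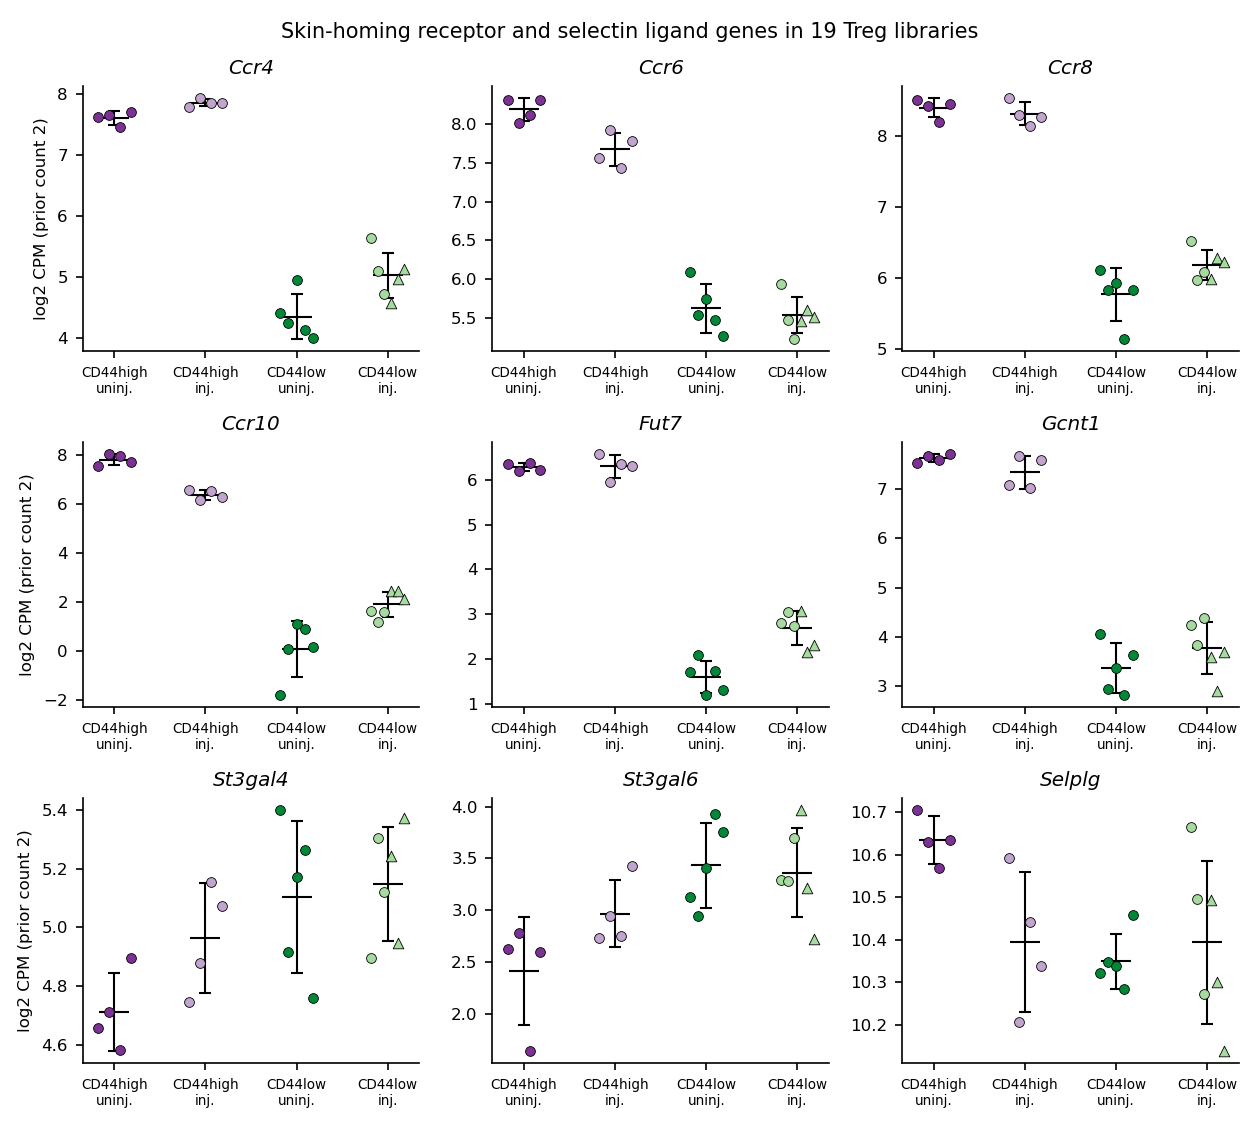
Level of each of the 9 genes in the 19 libraries, as log2 CPM with a prior count of 2 (y axis, a different range in each panel), by group (x axis). Points are libraries, triangles the 3 injured CD44low libraries with a second number, and the lines and bars the mean and SD. The 4 receptors, *Fut7* and *Gcnt1* lie higher in every CD44high than in every CD44low library, while the ranges of *St3gal4* and of *Selplg* in injured mice overlap between the subsets.

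The first question of the design is how CD44high Tregs differ from CD44low Tregs. In uninjured mice 7 of the 9 genes were higher and 2 were lower in CD44high Tregs (edgeR quasi-likelihood test, adjusted p under 0.05 over all genes tested), and in injured mice 6 were higher and 0 lower. The count of 0 was the same at an unadjusted p under 0.05 and with DESeq2. Of all genes tested, 24.7% were called higher and 21.3% lower in uninjured mice, and 20.1% higher and 17.2% lower in injured mice, so that a call alone was common in this comparison. The ranges of CD44high and CD44low libraries did not overlap for 8 of the 9 genes in uninjured mice, against 40.7% of all genes, and for 6 of 9 in injured mice, against 24.8%. The median log2 fold change was 2.61 over the 9 genes and 0.01 over all genes in uninjured mice, and 2.14 against -0.00 in injured mice. Both comparisons, and the injury comparisons below, draw on the same 19 libraries. In sorted bulk RNA, fewer cells that express a gene and less RNA per cell cannot be told apart.

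*Ccr10* encodes the receptor for CCL27, which keratinocytes make, and for CCL28 of mucosal epithelia. It was at 188.5, 261, 252 and 209 CPM in the 4 uninjured CD44high libraries and at 0, 0.788, 1.84, 1.58 and 0.844 CPM in the 5 uninjured CD44low libraries, which held 0 to 13 counts each. After injury it was at 94.4, 70.6, 92.5 and 77.7 CPM in CD44high libraries and at 2.83, 1.99, 2.71, 5.17, 5.21 and 4.05 CPM in CD44low libraries, the last 3 of which are those with a second number. No 2 of the 4 groups overlapped: the level fell from uninjured to injured CD44high Tregs and on through injured to uninjured CD44low Tregs. It was 216-fold higher in CD44high than in CD44low Tregs of uninjured mice (95% interval 139 to 336) and 23.3-fold higher in injured mice (16.5 to 33.0), with adjusted p-values of 2.71e-15 and 6.47e-13 by edgeR. The first of these folds rests on 34 counts in the CD44low group. The log2 fold change in injured mice was 4.54, against 5.06 without and 4.10 with only the second-number libraries in the CD44low group. *Ccr4*, *Ccr6*, *Ccr8*, *Fut7* and *Gcnt1* stayed higher in both of these fits, with log2 fold changes between 2.12 and 3.94.

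*Ccr4* encodes the receptor for CCL17 and CCL22 of skin and dendritic cells. It was at 197, 203, 175.5 and 210 CPM in uninjured and at 222, 245, 231 and 233 CPM in injured CD44high libraries. In CD44low libraries it was at 20.8, 18.6, 30.5, 17.1 and 15.7 CPM without injury, and with injury its lowest, median and highest level was 23.4, 32.5 and 49.7 CPM. Every CD44high library stood above every CD44low library. *Ccr4* was 9.52-fold higher in CD44high Tregs of uninjured mice (7.32 to 12.4, adjusted p = 8.55e-13) and 7.01-fold higher in those of injured mice (5.52 to 8.90, adjusted p = 3.43e-12, edgeR).

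*Ccr8* encodes the receptor for CCL1 and, in mice, CCL8, and is a marker of tissue Tregs. Its level was 366, 345, 296 and 352 CPM in uninjured and 372.5, 315, 284 and 311 CPM in injured CD44high libraries. In uninjured CD44low libraries it was 68.8, 56.9, 60.8, 34.9 and 56.9 CPM, and in injured ones its lowest, median and highest level was 62.4, 71.0 and 92.1 CPM. The subsets stood apart, while injured and uninjured libraries of one subset overlapped. The difference between the subsets was 6.11-fold (4.92 to 7.57) without and 4.40-fold (3.60 to 5.37) with injury, with adjusted p-values of 1.23e-12 and 1.7e-11 by edgeR.

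*Ccr6* encodes the receptor for CCL20. It was at 317, 258, 278 and 317 CPM in uninjured and at 189, 241, 172 and 219 CPM in injured CD44high libraries. It was at 68.2, 46.0, 53.1, 44.1 and 38.1 CPM in uninjured CD44low libraries, and at a lowest, median and highest level of 37.1, 44.6 and 60.7 CPM in injured ones. All CD44high libraries lay above all CD44low libraries, by 5.86-fold in uninjured (4.70 to 7.29, adjusted p = 2.41e-12) and 4.42-fold in injured mice (3.60 to 5.42, adjusted p = 2.7e-11, edgeR).

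*Fut7* encodes the fucosyltransferase that completes sialyl Lewis X in leukocytes and is the limiting enzyme of selectin binding in T cells. It was at 81.5, 72.7, 82.6 and 74.5 CPM in uninjured and at 95.3, 62.0, 81.7 and 79.5 CPM in injured CD44high libraries. The uninjured CD44low libraries held 2.97, 3.94, 1.99, 3.02 and 2.19 CPM, from 13 to 25 counts each, and the injured ones 6.70, 7.97, 6.42, 8.10, 4.13 and 4.65 CPM, from 23 to 64 counts. The CD44high groups overlapped each other, and the 2 CD44low groups did not. *Fut7* was 27.4-fold higher in CD44high Tregs of uninjured mice (20.4 to 36.8, adjusted p = 8.37e-15) and 12.5-fold higher in those of injured mice (9.72 to 16, adjusted p = 1.31e-13, edgeR).

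*Gcnt1* encodes the enzyme that starts the branched core on O-linked sugars, on which the selectin ligand of PSGL-1 sits. Its level was 184, 203, 193 and 209 CPM in uninjured and 135, 203, 130 and 191 CPM in injured CD44high libraries. In CD44low libraries it was 16.4, 7.40, 10.1, 6.75 and 12.2 CPM without injury, and its lowest, median and highest level was 7.19, 13.3 and 20.5 CPM with injury. The subsets did not overlap in either condition. The fold between them was 18.7 (13.2 to 26.5) in uninjured and 11.6 (8.45 to 15.9) in injured mice, with adjusted p-values of 1.31e-12 and 7.81e-12 by edgeR.

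*Selplg*, *St3gal4* and *St3gal6*, the carrier and the sialyltransferases, had smaller fold changes between the subsets than the other 6 genes. *Selplg* was at 1668, 1584, 1518 and 1589 CPM in uninjured CD44high libraries and at 1281, 1302, 1294, 1247 and 1406 CPM in uninjured CD44low libraries. In injured mice it was at 1544, 1181, 1392 and 1294 CPM in CD44high libraries, inside the range of 1127 to 1623 CPM of the CD44low libraries, whose median was 1351 CPM. The uninjured subsets did not overlap, and the injured ones did. *Selplg* was 1.22-fold higher in CD44high Tregs of uninjured mice (1.06 to 1.40, adjusted p = 0.0206), but this call was lost without uninjured CD44high replicate 2 (adjusted p = 0.0709) or uninjured CD44low replicate 4 (0.0507, edgeR). In injured mice the fold was 1.00 with an interval of 0.872 to 1.14 (edgeR adjusted p = 0.981).

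*St3gal4* and *St3gal6* encode the enzymes that add the sialic acid of sialyl Lewis X, and they were the 2 genes that were lower in uninjured CD44high Tregs. *St3gal6* was at 5.88, 6.61, 2.84 and 5.78 CPM in uninjured CD44high and at 8.44, 7.40, 10.4, 14.9 and 13.2 CPM in uninjured CD44low libraries, 17 to 104 counts each. In injured mice it was at 6.37, 7.41, 6.47 and 10.5 CPM in CD44high libraries, within the CD44low range of 6.30 to 15.3 CPM (median 9.49). The uninjured subsets did not overlap. *St3gal6* was 2.05-fold lower in CD44high Tregs without injury (1.35 to 3.13, adjusted p = 0.00592), and in injured mice the edgeR log2 fold change was -0.43 with an interval of -1.0 to 0.13 (adjusted p = 0.217).

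*Dcbld2* lies on the opposite strand to *St3gal6* and shares 1603 of the exon bases of *St3gal6* (26%). The library kit does not mark strand, so reads within that shared stretch could not be told apart between these genes. *Dcbld2* had at most 43 counts in a library. It was higher in CD44high than in CD44low Tregs without and with injury (adjusted p = 0.018 and 0.0049, edgeR), with overlapping ranges in uninjured mice. The uninjured CD44high group held 112 and the uninjured CD44low group 32 counts. The part of shared reads in the *St3gal6* counts was not tested. *St3gal4* shares 412 exon bases (14.1%) with 4930581F22Rik on the opposite strand, which had at most 33 counts.

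*St3gal4* ranged from 23.7 to 29.5 CPM (median 25.4) in uninjured CD44high, from 26.8 to 41.9 CPM (35.8) in uninjured CD44low, from 26.6 to 35.4 CPM (31.3) in injured CD44high and from 29.5 to 41.1 CPM (36.0) in injured CD44low libraries. All neighbouring groups overlapped. It was 1.32-fold lower in CD44high Tregs of uninjured mice (1.07 to 1.65, edgeR adjusted p = 0.0315). The adjusted p rose to 0.0591 to 0.0892 when uninjured CD44high replicate 2 or 4 or uninjured CD44low replicate 1 or 4 was left out, so that the call rested on each of these libraries. In injured mice the log2 fold change was -0.19 (-0.48 to 0.11, edgeR adjusted p = 0.320).

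**Figure D2:**
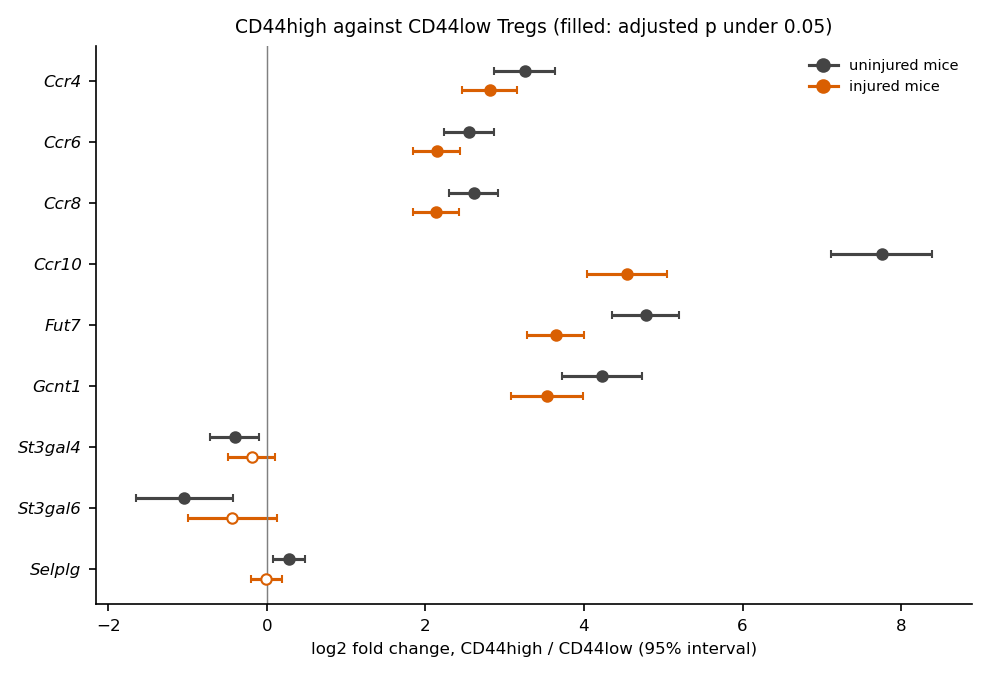
Log2 fold change of each of the 9 genes in CD44high against CD44low Tregs (x axis), with 95% intervals, in uninjured (grey) and injured (orange) mice. Filled points have an adjusted p under 0.05 in edgeR. The 4 receptors, *Fut7* and *Gcnt1* lie between 2.14 and 7.75 in both conditions, and *Selplg*, *St3gal4* and *St3gal6* lie between -1.04 and 0.28.

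The second question is what the burn changed 7 days later within each subset. In CD44high Tregs 1 of the 9 genes fell and 0 rose, against 1.33% and 1.06% of all genes, and injured and uninjured libraries did not overlap for 3 of them (*Ccr4*, *Ccr6* and *Ccr10*), against 13.3% of all genes. In CD44low Tregs 3 of the 9 rose (*Ccr4*, *Ccr10* and *Fut7*) and 0 fell, against 4.24% and 3.36% of all genes, and the ranges did not overlap for 2 (*Ccr10* and *Fut7*), against 4.68%. The median log2 fold change after injury was -0.08 in CD44high Tregs, where that of all genes was -0.02, and 0.39 in CD44low Tregs, where that of all genes was 0.01. At an unadjusted p under 0.05 (edgeR), 3 of the 9 were lower and 0 higher in CD44high Tregs. In CD44low Tregs 4 were higher and 0 lower. Of all 11464 genes, 1736 and 2986 passed that threshold in the 2 subsets, both directions together. DESeq2 called 2 lower and 0 higher in CD44high Tregs, against 282 and 195 over all genes. In CD44low Tregs it called 4 higher and 0 lower, against 932 and 528 over all genes.

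*Ccr10* moved in opposite directions in the 2 subsets. It was 2.72-fold lower in CD44high Tregs of injured mice (1.98 to 3.73, adjusted p = 0.000438) and 3.41-fold higher in CD44low Tregs of injured mice (2.00 to 5.79, adjusted p = 0.00695, edgeR). The difference between these 2 effects was tested itself and was -3.21 ± 0.427 on the log2 scale (SE, adjusted p = 0.000422). It was the 1 gene of the 9 called lower in this test, against 0.454% of all genes, and 0 were called higher, against 0.192%. At an unadjusted p under 0.05 these counts were 5 and 0 in edgeR, against 1247 of all 11464 genes in either direction. DESeq2 called 2 lower and 0 higher, against 157 and 58 over all genes. In CD44low Tregs the 3 libraries with a second number were the highest of the 6. Without them the log2 fold change after injury was 1.25 (adjusted p = 0.0477), and with them alone in that group it was 2.21 (adjusted p = 0.00334, edgeR). The adjusted p in CD44low Tregs was 0.0554 when only the 2 groups compared entered the fit. The rise in CD44low Tregs was one from 34 counts over 5 libraries to 140 counts over 6, and the CD44low level after injury stayed below that of every CD44high library.

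*Fut7* was 2.25-fold higher in CD44low Tregs after injury (1.66 to 3.04, adjusted p = 0.00226), with a log2 fold change of 1.32 without the libraries with a second number and of 1.01 with them alone (adjusted p = 0.000496 and 0.0319, edgeR). In CD44high Tregs its log2 fold change was 0.03 (-0.32 to 0.39, adjusted p = 0.954). The difference between the subsets was -1.14 ± 0.272 (SE) with an adjusted p of 0.0521, just short of the threshold, and over the alternatives the adjusted p lay between 0.00562 and 0.156.

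*Ccr4* was 1.61-fold higher in CD44low Tregs after injury (1.27 to 2.05, adjusted p = 0.0165), although its ranges overlapped. Its adjusted p was 0.0650 with the 2 groups alone, 0.0745 with the second-number libraries alone and 0.00572 without them (edgeR). In CD44high Tregs the lowest injured library was above the highest uninjured one, yet the log2 fold change of 0.25 (-0.12 to 0.61) did not pass the test (edgeR adjusted p = 0.559). The difference between the subsets was -0.44 ± 0.244 (SE, edgeR adjusted p = 0.530).

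The other members did not pass the test after injury in either subset. *Ccr6* had a log2 fold change of -0.51 (-0.83 to -0.19) in CD44high Tregs, with every injured library below every uninjured one and an edgeR adjusted p of 0.0832. It passed with DESeq2 (0.0432), with the groups compared alone (0.0251) and with libraries of one first number summed (0.0439). In CD44low Tregs it was -0.10 (-0.39 to 0.19). *Ccr8* had a log2 fold change of -0.08 in CD44high and of 0.39 in CD44low Tregs (adjusted p = 0.853 and 0.0752, edgeR). In CD44low Tregs it passed with DESeq2 (0.0393) and without uninjured CD44low replicate 1 (0.0458) or injured CD44high replicate 2 (0.0487). *Gcnt1* had -0.26 and 0.43 (adjusted p = 0.648 and 0.240), and the second of these was 0.75 without the libraries with a second number (adjusted p = 0.0321) and 0.03 with them alone (0.966, edgeR).

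*Selplg* had a log2 fold change after injury of -0.23 (-0.45 to -0.02) in CD44high and of 0.05 (-0.13 to 0.24) in CD44low Tregs, *St3gal4* of 0.26 (-0.07 to 0.58) and 0.04 (-0.24 to 0.31), and *St3gal6* of 0.54 (-0.10 to 1.17) and -0.07 (-0.59 to 0.45). These intervals limit a change of *Selplg* and *St3gal4* to under 2-fold in both subsets, whereas a fold of 2 in *St3gal6* of CD44high Tregs lies inside its interval.

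**Figure D3:**
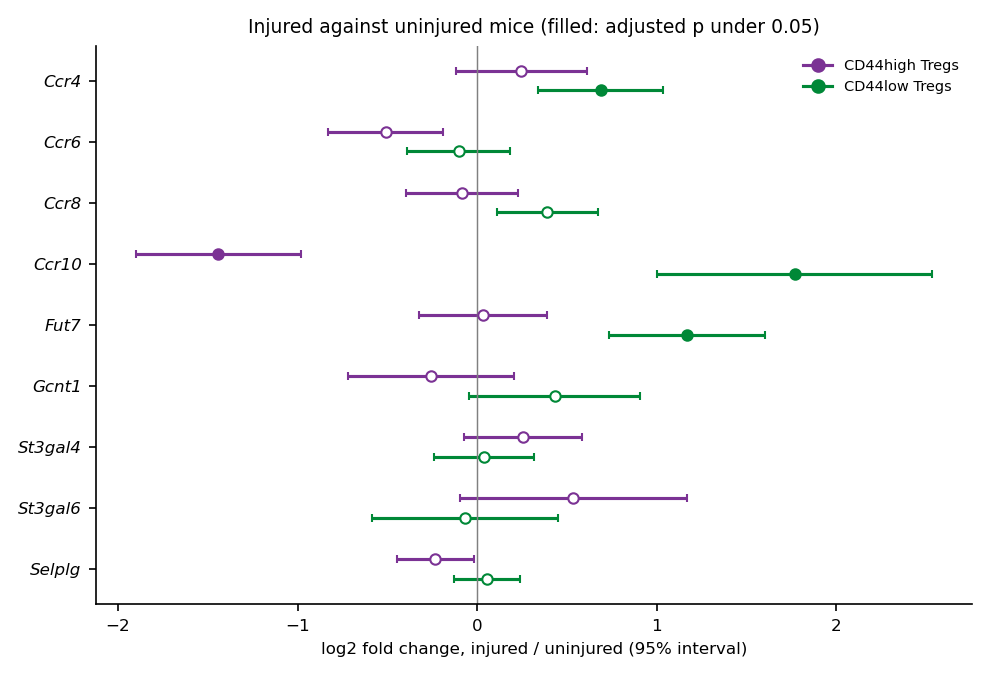
Log2 fold change of each of the 9 genes in injured against uninjured mice (x axis), with 95% intervals, in CD44high (purple) and CD44low (green) Tregs. Filled points have an adjusted p under 0.05 in edgeR. *Ccr10* lies at -1.44 in CD44high and at 1.77 in CD44low Tregs, and *Fut7* and *Ccr4* are the other filled points, both in CD44low Tregs.

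Markers of other cells also moved with injury. Neutrophil markers summed to at most 0.5 CPM in uninjured CD44high and 1.69 CPM in uninjured CD44low libraries, and to 2.12 to 20.2 and 0 to 30.4 CPM in the injured ones, where *Ly6g* and *Mpo* were at 0 in the CD44low group. Of the 2 tested neutrophil markers *S100a9* was higher after injury in both subsets. Of the 8 tested markers of macrophages, monocytes and dendritic cells 1, *Lyz2*, was higher in injured CD44low Tregs, and 4 were higher there at an unadjusted p under 0.05 (edgeR). At that unadjusted threshold 2986 of all 11464 genes passed there in either direction. The shares of all genes called higher after injury were 1.06% in CD44high and 4.24% in CD44low Tregs. *Klrb1c* was higher after injury in CD44low and *Pecam1* in CD44high Tregs. Their part in the changes of *Ccr10*, *Fut7* and *Ccr4* was not tested.

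Other genes of the same pathways were taken from lists that were set with earlier results of these data known. Of the ligands of the 4 receptors, 8 are listed and 3 were tested. *Ccl22* and *Ccl1*, ligands of CCR4 and CCR8, were higher in CD44high Tregs of uninjured mice. *Ccl22* was at 0.834 to 6.42 CPM there and had 4 counts over the 5 uninjured CD44low libraries. *Ccl1* was at 0.535 to 4.84 CPM against 0 to 0.994 CPM (edgeR adjusted p = 0.0172). No CD44low library held more than 7 counts of *Ccl1*, so it passed the filter on low counts through the CD44high libraries. The direction of its difference was thereby largely set in advance. In injured mice *Ccl1* was also higher in CD44high Tregs, with a log2 fold change of 2.85 (adjusted p = 0.00803), or 1.98 with the second-number libraries alone in the CD44low group (0.103), and *Ccl22* had 0.52 (adjusted p = 0.641, edgeR). *Ccl8*, the mouse CCR8 ligand, rose after injury in both subsets, with log2 fold changes of 2.83 in CD44high and 1.81 in CD44low Tregs (adjusted p = 0.0125 and 0.0270, edgeR). In CD44low Tregs the adjusted p was 0.0110 without the second-number libraries and 0.182 with them alone. Its range was 0.339 to 1.84 CPM in uninjured against 3.28 to 16.6 CPM in injured CD44high libraries, and 0.625 to 5.36 against 4.65 to 18.4 CPM in CD44low libraries. Macrophages and dendritic cells are known sources of CCL22 and CCL8. The range of their summed markers in each group is given above, and their part in these levels was not tested.

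Of 22 further enzymes of selectin ligand synthesis 15 were tested. In CD44high Tregs 6 were higher and 0 lower without injury, and 5 and 0 with injury, with list medians of 0.23 and 0.25 against 0.01 and -0.00 for all genes. The shares of all genes were 24.7% higher and 21.3% lower without injury, and 20.1% and 17.2% with injury. *Chst2*, a sulfotransferase of selectin ligands, had the largest difference among the 4 named, at 102 to 130 against 11.6 to 24.1 CPM in uninjured mice, with log2 fold changes of 2.61 and 2.52 without and with injury (adjusted p = 1.96e-10 and 1.7e-10, edgeR). *Tpst2*, which sulfates the tyrosines of PSGL-1 that P-selectin binds, differed by 0.83 and 0.57 on the log2 scale, *St3gal1* by 0.74 and 0.84 and the chain-extending *B3gnt2* by 0.42 and 0.53. The number lower was 1 in each condition at an unadjusted p under 0.05 (edgeR) and 0 in each with DESeq2. At that unadjusted threshold 6032 and 5306 of all 11464 genes passed without and with injury, both directions together. After injury 0 of the 15 changed in CD44high Tregs by edgeR, and 0 at an unadjusted p under 0.05 or with DESeq2. In CD44low Tregs *Tpst2* rose by 0.39 on the log2 scale (edgeR adjusted p = 0.0207) and 1 gene, *B4galt1*, fell. The shares of all genes that rose and fell were 1.06% and 1.33% in CD44high and 4.24% and 3.36% in CD44low Tregs.

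The counts for the enzymes that start or supply the sugars can be set beside the 24.7% of all genes called higher and 21.3% lower without injury, and 20.1% and 17.2% with injury. Of 9 GalNAc transferases, which place the first sugar of O-linked chains, 2 were higher and 2 lower in CD44high Tregs without injury, and 3 and 1 with injury, with list medians of 0.11 and 0.04. *Galnt10* was lower by 1.98 and 1.69 on the log2 scale (67.6 to 105 against 301.5 to 358 CPM without injury). Of 12 tested genes of sugar nucleotide supply 3 were higher and 1 lower without injury and 2 and 2 with injury, with list medians of 0.21 and 0.16. *Gmds*, an enzyme of the route to GDP-fucose, was higher by 0.82 and 0.83 and *Gne*, which starts sialic acid synthesis, was lower by 0.48 and 0.43 on the log2 scale in the 2 conditions. The second of these was 0.51 lower without and 0.36 lower with only the second-number libraries (edgeR adjusted p = 0.00568 and 0.0523).

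Among 8 tested enzymes that compete for the same sugars or cap them otherwise, 2 were higher and 2 lower in uninjured and 3 and 2 in injured CD44high Tregs, with list medians of 0.04 and 0.33. For this list and the next, the shares of all genes were again 24.7% and 21.3%, and 20.1% and 17.2%. *Fut8*, the core fucosyltransferase, was higher by 1.33 and 1.32, and the sialyltransferases *St8sia6* and *St8sia1* were lower, with log2 fold changes of -2.52 and -2.16 and of -2.84 and -1.63. After injury *St8sia1* fell by 0.57 in CD44low Tregs (edgeR adjusted p = 0.0332), and the difference of its injury effects was 1.21 (adjusted p = 0.0325). With the second-number libraries alone in that group the adjusted p-values were 0.199 and 0.0829, and without them 0.0222 and 0.0149. Of 6 tested other carriers of selectin ligands 2 were higher and 2 lower without and 1 and 1 with injury, with list medians of -0.10 and 0.11. They included *Cd44*, the sort marker, and *Lamp1*, with log2 fold changes of -0.76 and -0.69.

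Of 13 tested other chemokine receptors 9 were higher and 3 lower in CD44high Tregs without injury and 9 and 2 with injury, and their list medians were 2.83 and 1.93. *Xcr1*, among those higher, is also counted with the markers of macrophages, monocytes and dendritic cells above. *Ccr9*, among those lower, is also counted with the gut-homing genes below. The shares of all genes were 24.7% higher and 21.3% lower without injury, and 20.1% and 17.2% with injury. *Ccr2* of inflammatory homing, *Ccr3*, *Cxcr6* and *Cxcr3* were among those higher, with log2 fold changes without and with injury of 5.68 and 4.20, 6.78 and 4.58, 6.03 and 4.44, and 2.65 and 1.51. *Ccr7*, which keeps T cells in lymph nodes, was lower, with log2 fold changes of -1.71 and -1.69. After injury *Ccr2* and *Cxcr6* rose in CD44low Tregs by 1.03 and 1.18 (adjusted p = 0.00178 and 0.00397, and 0.0149 and 0.0611 with the second-number libraries alone), and *Cxcr3* fell by 0.90 in CD44high Tregs (adjusted p = 0.00306, edgeR). In all, 3 rose and 0 fell in CD44low Tregs (0 also at an unadjusted p under 0.05 in edgeR and with DESeq2), against 4.24% and 3.36% of all genes. In CD44high Tregs 1 rose and 1 fell, against 1.06% and 1.33% of all genes. A lower injury effect in CD44high than in CD44low Tregs was called for 3, against 0.454% of all genes.

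The gut-homing genes split. *Itgb7* and *Gpr15* were higher in CD44high Tregs, with log2 fold changes of 0.67 and 2.40 without and 0.32 and 2.43 with injury, and *Itga4* and *Ccr9* were lower, with -3.00 and -1.32 without and -1.73 and -1.43 with injury. All 4 genes were called in both conditions, and the list medians were -0.32 and -0.55. The shares of all genes were 24.7% higher and 21.3% lower without injury, and 20.1% and 17.2% with injury. *Itga4* fell by 0.74 after injury in CD44low Tregs (adjusted p = 0.000726) and *Itgb7* fell by 0.34 in CD44high Tregs (adjusted p = 0.0393, edgeR).

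Of 16 transcription factors known to act on the skin-homing genes in T cells, 8 were higher and 7 lower in uninjured CD44high Tregs, and 9 and 7 in injured ones, with list medians of 0.46 and 0.90. The shares of all genes were 24.7% higher and 21.3% lower without injury, and 20.1% and 17.2% with injury. *Prdm1*, *Rora*, *Tbx21* and *Batf* were higher, with log2 fold changes of 3.58, 3.11, 2.35 and 2.00 without injury and of 2.94, 2.47, 1.34 and 1.70 with injury. After injury *Tbx21*, a driver of *Fut7* and *Gcnt1* in effector T cells, fell by 1.20 in CD44high Tregs (adjusted p = 0.00121), and *Batf* rose by 0.62 in CD44low Tregs (adjusted p = 0.00905, edgeR). In all, 1 of the 16 rose and 1 fell in each subset. Of all genes, 1.06% rose and 1.33% fell in CD44high Tregs, and 4.24% and 3.36% in CD44low Tregs.

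**Figure D4:**
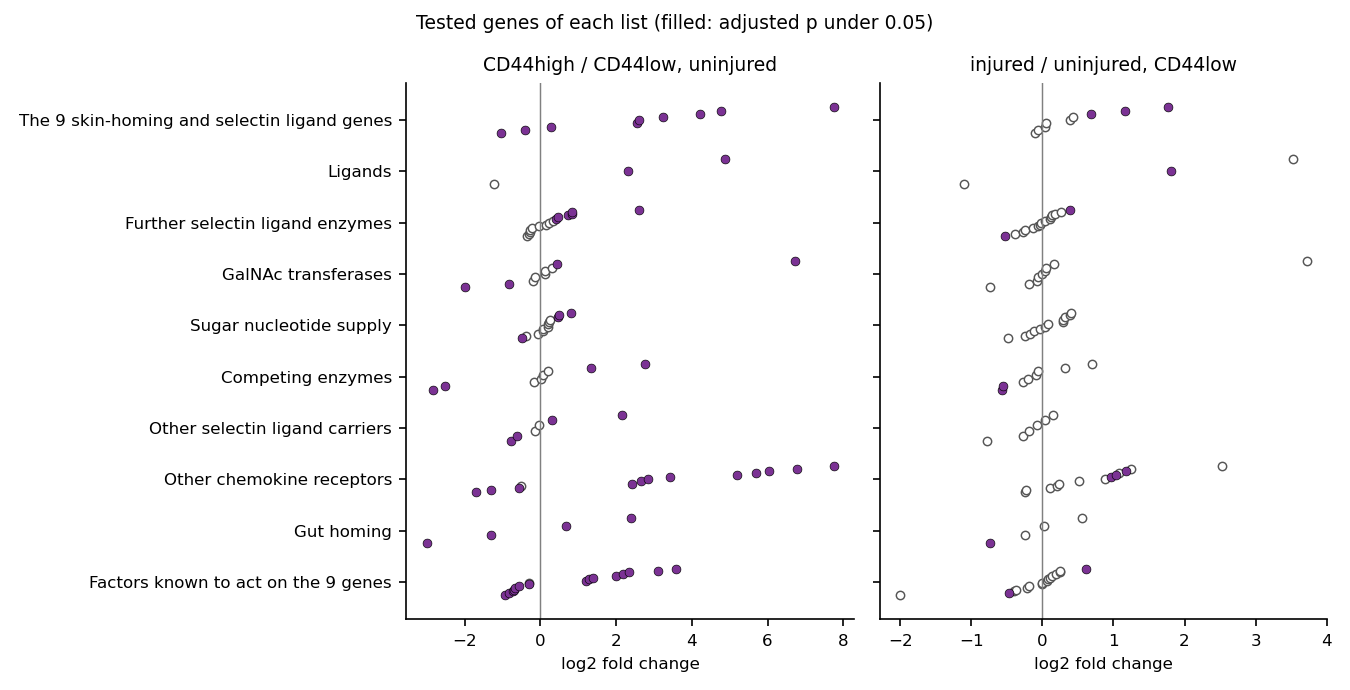
Log2 fold change of every tested gene of each list (x axis) in CD44high against CD44low Tregs of uninjured mice (left) and in injured against uninjured mice in CD44low Tregs (right). Points are genes, filled at an adjusted p under 0.05 in edgeR, and fitted values of genes with few counts depend on the prior count. The 9 skin-homing and selectin ligand genes span -1.04 to 7.75 on the left, and 3 of them are filled on the right.

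The genes whose log2 level over the 19 libraries, centred on its mean, was closest to that of each of the 9 were ranked by the root-mean-square (RMS) difference. This difference is not scaled to how widely a gene's own level varied. Its size therefore does not measure how distinctive the pattern of one of the 9 genes is beside another. For *Ccr8* they were *Stx11* (RMS difference 0.161), *Zdhhc2* (0.242) and *Rora* (0.285), for *Ccr6* they were *Cd44* (0.199), *Fam234a* (0.222) and *Stx11* (0.242), and for *Ccr4* they were *Adap1* (0.291), *Icos* (0.327) and *Tigit* (0.329). For *Fut7* they were *S100a6* (0.392), *Cdca8* (0.413) and *Tk1* (0.434), and for *Gcnt1* they were *Ccna2* (0.393), *Tff1* (0.429) and *Myo1f* (0.454). *Ccr10* had the most distant neighbours of the 9, *Lgals3* (0.594), *Ccnb2* (0.777) and *Ccr3* (0.841), and *Selplg* the closest, *Rpn2* (0.0773), *Rac1* (0.0853) and *Psmd3* (0.0905). *St3gal4* was nearest to *Npepps* (0.153), *Tmc6* (0.163) and *Ythdc1* (0.170), and *St3gal6* to *Thumpd2* (0.325), *Bphl* (0.341) and *Abi3* (0.341).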

How the data were processed

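The authors sorted the cells, made cDNA with SMART-Seq v4 reagents and Swift 2S libraries, and ran STAR (version 2.5 in the submitters' processing notes, with bcl2fastq 2.18) through the VIPER workflow. The deposited values are raw, unnormalized counts of each library. The notes name both mm9 and mm10, and the sources used here do not give which of them, with which annotation, underlies the counts. All 19 columns were matched to a sample by label.

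Here counts were analysed in R 4.3.3 with edgeR 4.0.16: low-count filter (minimum count 10), TMM factors, 1 mean for each of the 4 groups, and two-sided quasi-likelihood tests, adjusted by Benjamini-Hochberg over all 11464 genes that passed. A gene was called at an adjusted p under 0.05, and was said to rise, fall, or be higher or lower only then. CPM uses TMM-scaled totals over the genes that passed the filter. Intervals are 95%. Reads carry no molecular identifiers. Tests were tried on simulated data. Transcript lengths and overlaps came from GENCODE vM21 (24463 symbols matched), and promoters from RefSeq, which gave 7 of the 9 genes. *Ccr10* and *Selplg* are not in that table.

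The 9 genes and all lists were chosen with earlier results of these data known. Named were the 9 genes, up to 4 genes of smallest p from each list and any gene its count needs, and for each of the 9 genes the 3 closest in RMS difference. A gene list of the design is not reported here. *Lyz2*, *Clec9a*, *Ly6g*, *Mpo*, *S100a9*, *Klrb1c*, *Col1a1*, *Pecam1*, *Col3a1*, *Pdpn*, *Cdh5*, *Lyve1*, *Xcr1* and *B4galt1* were named after their values were seen. Alternatives were DESeq2 1.42.0, RLE factors, no filter, the compared groups alone, a replicate block, 3 treatments of the second-number libraries, 2 stricter thresholds, other lengths and prior counts, and each library left out. Thinning to the smallest total was chosen after seeing the data.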

Additional observations from a re-analysis of the deposited data

Results flagged for a closer look

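The effect of injury differed between CD44high and CD44low Tregs for 7 genes among the 9 and the 29 others named. This was by the test of the difference itself in edgeR, in which 0.192% of all genes were called higher and 0.454% lower. List genes were named for a small p in any comparison, this one included, so their number here is no result about them. On the log2 scale the difference (CD44high minus CD44low) was -3.21 for *Ccr10* (adjusted p = 0.000422), -1.59 for *Cxcr6* (0.00671), -1.48 for *Ccr2* (0.00321), -1.13 for *Cxcr3* (0.0138) and -0.64 for *Rora* (0.0426), which is no longer called when all libraries are thinned to the smallest total. It was 1.27 for *Itga4* (0.000676) and 1.21 for *St8sia1* (0.0325). Without the injured CD44low libraries that carry a second number all 7 stayed called, and with these alone in that group all but *St8sia1* did (adjusted p = 0.0829).

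In 6 of 152 groups of libraries, over the 9 genes and 29 others, 1 library stood apart by Dixon's test at 95%, and chance flags about 1 in 20. None was in one of the 9 skin-homing and selectin ligand genes. *Gne* was at 71.1 CPM in uninjured CD44low replicate 5 and at 92.9 to 99.6 CPM in the others of its group. *Itga4* was at 14.5 CPM in uninjured CD44high replicate 4 (others 19.2 to 19.6) and at 19.1 CPM in injured CD44high replicate 2 (others 28.3 to 29.1). In that second library *Rora* was at 264 CPM (others 223 to 229). *Ccl8* was at 18.4 CPM in injured CD44low replicate 5 (others 4.65 to 9.08), and *Ccl22* at 0.630 CPM in uninjured CD44low replicate 2, where the others were at 0.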

How the results depend on the processing

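Over 28 alternatives for a comparison and 27 for the difference of the injury effects, the 4 receptors, *Fut7* and *Gcnt1* stayed higher in CD44high Tregs in both conditions, *Ccr10* stayed lower after injury in CD44high Tregs (log2 -1.51 to -1.36) and its difference between the subsets stayed called (-3.64 to -2.69). Of the 9 genes, those called lower in uninjured CD44high Tregs numbered 2, but 1 with the replicate block, 1 with a 2-fold minimum, 0 at an unadjusted p under 1e-06 with 2-fold, and 1 to 2 when 1 library was left out. Those that fell after injury in CD44high Tregs numbered 1, but 2 with DESeq2, the compared groups alone or the first numbers summed (*Ccr6* added), and 0 at the strictest threshold. Those that rose in CD44low Tregs numbered 3, but 4 with DESeq2 (*Ccr8* added) or second-number libraries left out (*Gcnt1* added), 3 to 4 when 1 library was left out, 2 with second-number libraries alone (*Ccr4* lost) or a 2-fold minimum, 1 with the compared groups alone and 0 at the strictest threshold. Those with a lower injury effect in CD44high Tregs numbered 1, but 2 (*Fut7* added) with DESeq2, RLE factors, no filter, the replicate block, summed libraries or second-number libraries left out, and 1 to 2 when 1 library was left out. The cause was not tested.

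Signs turned only in changes near 0 that were not called. *Selplg* in injured mice was 0.059 with the replicate block and 0.061 with second-number libraries alone, and -0.10 to 0.058 when 1 library was left out. After injury *Fut7* in CD44high Tregs ranged from -0.05 to 0.14, and *Ccr6*, *St3gal4* and *St3gal6* in CD44low Tregs from -0.17 to 0.059, from -0.019 to 0.14 and from -0.21 to 0.10 in the same way. In CD44low Tregs *Selplg* was -0.011 with second-number libraries alone and *St3gal4* -0.0032 without them. The *St3gal4* call in uninjured mice was lost with the replicate block (adjusted p = 0.0635), which ended no other call of the 9 genes. Same-numbered libraries of the subsets correlated at -0.0537 to 0.167 and differently numbered ones at -0.452 to 0.41. These values cannot decide whether a shared number marks the same mouse. The numbers were not taken as pairs because the paper's methods do not pair samples.

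Over all genes, calls after injury in CD44low Tregs ranged from 211 to 1122 higher (main 486) and from 142 to 890 lower (385), in CD44high Tregs from 78 to 278 (121) and 71 to 323 (152), and for the difference from 16 to 151 (22) and 27 to 163 (52). At an unadjusted p under 1e-06 with 2-fold these were 10 and 4, 14 and 3, and 4 and 6, and for CD44high against CD44low Tregs 715 and 236 (2837 and 2443 in the main analysis) without and 518 and 170 (2307 and 1976) with injury. Without the second-number libraries *Lamp1* and *Ccl22* were also called higher after injury in CD44low Tregs (adjusted p = 0.0458 and 0.0193), and the difference of the injury effects was also called for *Ccr3*, *Itgb7*, *Prdm1* and *Tbx21* (0.0162 to 0.0464). Depth limits *Ccr10* and *Fut7* in CD44low Tregs, at 0 to 30 and 13 to 64 counts a library, and *St3gal6*, at 17 to 47 in uninjured CD44high Tregs. With a prior count of 0.5, *Ccnb2* and *Ccr3* left the 3 genes closest to *Ccr10* and *Tff1* those closest to *Gcnt1*.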
